A study of Mus musculus with 8 samples.

Results

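The genes examined were the 9 that write, maintain, remove or guard DNA methylation in the mouse oocyte: Dnmt1, Uhrf1, Dnmt3a, Dnmt3b, Dnmt3l, Tet1, Tet2, Tet3 and Dppa3. They were chosen by name and not by a threshold on measured values, although with earlier results of these data known, and each has 1 row among the 46078 genes of the count table. All 9 were among the 19241 genes tested, those that reached 0.2 CPM (read counts relative to library size) in 2 or more libraries. RNA was sequenced from germinal vesicle (GV)-stage oocytes, fully grown oocytes still arrested in the first meiotic prophase, of 2 genotypes. Control oocytes came from Zp3-Cre mice, and CNOT7&8 KO oocytes from mice in which the same Cre transgene had deleted floxed Cnot7 and Cnot8 (Cnot7 fl/fl and Cnot8 fl/fl), the DEDD-type deadenylases of the CCR4-NOT complex. The Zp3 promoter drives Cre in growing oocytes only, so the somatic cells of the follicle keep both genes, and both groups carry the transgene. The study's methods give a C57BL/6J background, females at 4 weeks of age and collection of GV oocytes after a PMSG injection, and they describe cumulus cell removal by hyaluronidase and pipetting. Each group had 4 libraries of 100 oocytes each. Oocytes were pooled, and nothing in the labels ties a library to an animal or a litter, so the p-values measure the spread between these libraries, which may be technical.

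DNA methylation is laid down on the oocyte genome during the growth phase, after the germ line has been stripped of it, and the maternal imprints are set at that time. DNMT3A does this with its catalytically inactive partner DNMT3L, DNMT3B is the related enzyme of the early embryo, and DNMT1 copies methylation onto new DNA strands with the help of UHRF1, which recognizes hemimethylated CpG sites. TET1, TET2 and TET3 oxidize 5-methylcytosine, the first step of demethylation, and TET3 is the form stored in the egg for the zygote. DPPA3, also called STELLA or PGC7, protects maternal methylation in the zygote and keeps UHRF1 out of the oocyte nucleus.

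The study examined the cytoplasmic polyadenylation element (CPE), UUUUAU in RNA, in the 3′UTRs of maternal mRNAs. The longest annotated 3′UTR of each of the 9 genes was searched for its DNA letters TTTTAT on the transcribed strand (GENCODE annotation of GRCm38). At least 1 copy was present in 7 of the 9, all but Dnmt3l and Dppa3, whereas 56.2% of 15125 tested protein-coding genes with a 3′UTR of at least 50 bases held it. The 3′UTRs differed in length, and a longer one has more positions at which the letters can occur. Dnmt3l and Dppa3 had the shortest, 273 and 267 bases, beside a median of 1119 bases over the tested genes. The copies below are those of the 3 genes with a change of at least 2-fold in the knockout (Dnmt1, Uhrf1 and Tet2, with the first of the adjoining pair in Uhrf1), and for comparison the last copy of Dnmt3a. The element is in capitals with the 12 bases on either side, written 5′ to 3′ on the mRNA strand.
Dnmt1 (chr9:20907239-20907268, minus strand): gacttgatgtagTTTTATatgttgtaatat
Uhrf1 (chr17:56323202-56323231, plus strand): tattatgggtttTTTTATttttatttttta
Tet2, first copy (chr3:133466559-133466588, minus strand): caaaatagtttaTTTTATcattatatttaa
Tet2, second copy (chr3:133464707-133464736, minus strand): actgaaaactaaTTTTATaaattttgtcac
Dnmt3a (chr12:3914377-3914406, plus strand): tgtttatatataTTTTATtttcgctataaa
The single Dnmt1 copy ended 20 bases before an AATAAA, the canonical polyadenylation signal, in a 3′UTR of 312 bases. The Dnmt3a copy ended 21 bases before one, in a 3′UTR of 6696 bases that held 5 copies. In Uhrf1 a second copy follows the first directly, and the nearest AATAAA lay 236 bases beyond it. The Tet2 3′UTR of 3058 bases held 2 copies, the second of them 1011 bases before the nearest AATAAA. Tet3 had 9 copies in 5669 bases, Tet1 8 in 7962 bases and Dnmt3b 2 in 1331 bases. In Tet3, copies ended 14 and 15 bases before an AATAAA, but 2781 and 1992 bases before the 3′UTR end. The Dnmt1 and Dnmt3a copies shown ended 42 and 49 bases before theirs. The last Tet3 copy ended 20 bases before the 3′UTR end, with no AATAAA after it. The Pumilio element TGTAAATA was found in Tet1 (1 copy) and Tet3 (2 copies) among the 9, and in 1815 of the 15125 coding genes. A match is a stretch of letters and does not show that a protein binds there.

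Libraries held from 14943671 to 44092144 counts in the control group and from 8639444 to 26784110 in the KO group. A total of 3 counts, taken as the detection limit for counting error only, corresponded to 0.347 CPM in the shallowest library, KO replicate 1. Each of the 9 genes had at least 89 counts in every library. Values below are CPM after TMM scaling, and changes are log2 fold changes (KO over control, called log2 changes) with their standard error (SE), from edgeR's quasi-likelihood test with p-values adjusted over the 19241 genes. A gene was called at an adjusted p of at most 0.05, and as a DEG when it also changed at least 2-fold. Cnot8 fell to 21.0% and Cnot7 to 77.1% of the control level, although reads on exons outside the deletion are included. Control replicate 1 and KO replicate 4 deviated from their groups in the same direction across genes (r = 0.372), so the results for the 9 genes, the ratios between them and the total counts of related genes are also given without both. The 12 oocyte markers summed to 17369 to 19986 CPM in control and 14530.5 to 16874 CPM in KO libraries, and they ranged from Figla (21.3 CPM in control, 13.8 CPM in KO) to Gdf9 (4401 and 4184 CPM). Scaling mattered: TMM factors were 0.849 to 0.943 in control and 1.07 to 1.14 in KO libraries, and scaling by library size only raised the log2 fold change of every gene by a median of 0.29.

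In CNOT7&8 KO oocytes, 6 of the 9 genes were lower (Dnmt1, Uhrf1, Dnmt3a, Dnmt3b, Dnmt3l and Dppa3), 2 were higher (Tet1 and Tet2), and Tet3 was not called. Over all tested genes, 24.1% were lower and 31.2% higher. The lower share grew with expression level, to 36.85% of genes averaging 10 to 100 CPM over the 8 libraries (Dnmt3b), 55.0% of those at 100 to 1000 CPM (Uhrf1, Dnmt3a, Dnmt3l and Dppa3) and 64.6% of the 82 at 1000 CPM or more (Dnmt1). Lower calls among these genes were thus common at their own levels. DEGs were Dnmt1 and Uhrf1, downregulated, beside 6.57% of all genes, and Tet2, upregulated, beside 23.8% of all genes. The KO and control libraries did not overlap for 8 of the 9 genes, 6 lower and 2 higher, where 21.4% of all genes lay apart in the lower and 27.0% in the higher direction. The median log2 fold change was -0.32 over the 9 genes and 0.12 over all tested genes. With scaling by library size only, the lower calls among the 9 dropped to 3 (Dnmt1, Uhrf1 and Dnmt3b), and over all genes 7742 were higher and 2620 lower in place of 5997 and 4637. Leaving out control replicate 1 and KO replicate 4 together gave the same 6 lower and 2 higher calls.

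**Figure D1:**
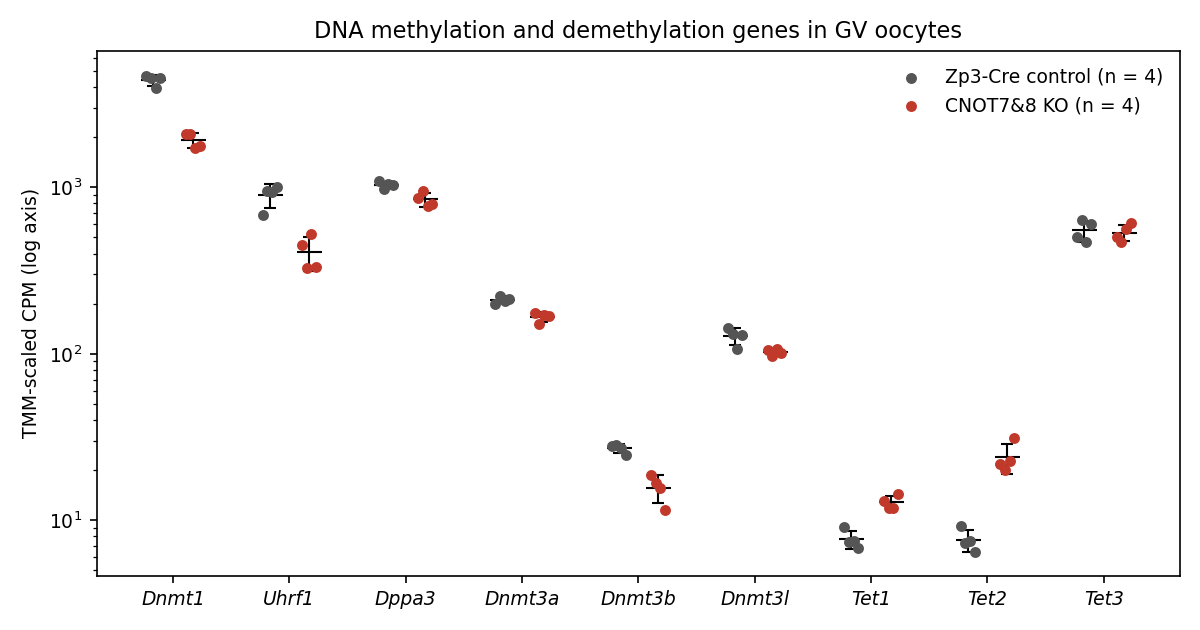
TMM-scaled CPM (log axis) of the 9 genes in GV oocytes, with a point for each of the 4 control and 4 KO libraries and a line at each group mean. The groups lie apart for every gene but Tet3, with Dnmt1 falling from 4422 to 1919 CPM and Tet2 rising from 7.63 to 23.9 CPM.

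Dnmt1, the maintenance methyltransferase, was the sixth most abundant of all tested genes in control oocytes by CPM and rank 22 in KO oocytes. It had 4698, 4541, 3935 and 4514 CPM in control replicates 1 to 4, and 2088, 2088, 1730.2 and 1770.1 CPM in KO replicates 1 to 4. Every KO library was below every control library, with a gap far wider than the spread within either group. The control mean was 4422 ± 335 CPM and the KO mean 1919 ± 196 CPM (SD, n = 4 each), which is 43.4% of control. The log2 change was -1.20 (SE 0.11, adjusted p = 3.8e-06, edgeR), and -1.14 without control replicate 1 and KO replicate 4. Of the 82 genes averaging 1000 CPM or more, 6.10% were downregulated DEGs. The gene (ENSMUSG00000004099, chr9:20907209-20959888, minus strand) has an oocyte form with its own first exon, and counts per gene do not separate the forms.

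Uhrf1, the partner that brings DNMT1 to newly replicated DNA, also fell. Control libraries had 681, 952, 941 and 1007 CPM, and KO libraries had 450.5, 327, 526 and 335 CPM. Control replicate 1 was the lowest of its group and still above the highest KO library. The means were 895 ± 146 and 410 ± 96.2 CPM (SD, n = 4 each), or 45.8% of the control level, and the log2 change was -1.13 (SE 0.17, adjusted p = 0.00016, edgeR). Without control replicate 1 and KO replicate 4 it was -1.15. Uhrf1 (ENSMUSG00000001228, chr17:56303321-56323486, plus strand) ranked 121st of the tested genes in control and 274th in KO oocytes. Dnmt1 and Uhrf1 stayed called, but short of 2-fold, with scaling by library size only (-0.92 and -0.85) and with TMM on genes of at least 10 CPM (-0.95 and -0.89).

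The number of Dnmt1 reads for each Uhrf1 read, a quantity free of library scaling, was 6.90, 4.77, 4.18 and 4.48 in control libraries and 4.64, 6.39, 3.29 and 5.29 in KO libraries. These ranges overlapped, and the difference of mean log2 ratios was -0.066 (exact permutation test, two-sided p = 0.857 and 0.857 after adjustment over 6 ratios), and 0.040 without control replicate 1 and KO replicate 4.

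Dppa3, which guards maternal methylation after fertilization, ranked 98th of all tested genes in control and 83rd in KO oocytes by CPM. Its values were 1086, 984, 1055 and 1026 CPM in control libraries and 864, 955, 777 and 795 CPM in KO libraries. The groups did not overlap, but KO replicate 2 came close to control replicate 2. Means of 1038 ± 43.4 and 848 ± 80.7 CPM (SD, n = 4 each) gave 81.7% of the control level and a log2 change of -0.29 (SE 0.10, adjusted p = 0.026, edgeR). This call did not hold with scaling by library size only (-0.0093, adjusted p = 0.935) and was lost in 9 of 18 alternative fits. Without control replicate 1 and KO replicate 4 it was -0.24 and called. Leaving out control replicate 3, control replicate 4, KO replicate 3 or KO replicate 4 each ended it, with log2 fold changes from -0.30 to -0.23. A pseudogene, Dppa3-ps, had 11 to 31 counts per library, and how reads shared with it were assigned is not given in the sources used here. The gene itself (ENSMUSG00000046323) lies at chr6:122626410-122630272 on the plus strand.

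Within a library, Dnmt1 fell against Dppa3. There were 4.33, 4.62, 3.73 and 4.40 Dnmt1 reads for each Dppa3 read in control libraries, and 2.42, 2.19, 2.23 and 2.23 in KO libraries. The ratio was lower in 4 of 4 KO libraries than in any control library, by 0.91 on average on the log2 scale (exact permutation test, two-sided p = 0.0286, the smallest that 4 libraries against 4 allow, and 0.0429 after adjustment over 6 ratios). Without control replicate 1 and KO replicate 4 the log2 difference was -0.90. Since both counts come from the same library, this difference does not depend on the choice of scaling.

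The de novo enzymes were all lower, none of them by 2-fold. Dnmt3a, which methylates the growing oocyte's genome, had 198, 222, 209 and 214 CPM in control libraries and 176, 151, 171 and 169 CPM in KO libraries. The groups lay apart, with means of 211 ± 10.2 and 167 ± 11.1 CPM (SD, n = 4 each) and a log2 change of -0.34 (SE 0.10, adjusted p = 0.011, edgeR), and of -0.38 without control replicate 1 and KO replicate 4. It was not called with scaling by library size only (-0.059, adjusted p = 0.621). The gene is ENSMUSG00000020661 (chr12:3806007-3914443, plus strand), and its antisense transcript Dnmt3aos had 6 to 25 counts per library.

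Dnmt3l, the cofactor without catalytic activity, had 143, 131, 106.88 and 130.2 CPM in control libraries and 106.06, 96.9, 106.84 and 100.5 CPM in KO libraries. The groups met almost exactly, with control replicate 3 just above KO replicate 3, while the other control libraries were clearly higher. Its means of 128 ± 15.0 and 103 ± 4.74 CPM (SD, n = 4 each) gave a log2 change of -0.32 (SE 0.11, adjusted p = 0.029, edgeR). The call was lost in 9 of 18 alternative fits, among them scaling by library size only (-0.030) and the fits without control replicate 2, control replicate 4, KO replicate 2 or KO replicate 4 (-0.31 to -0.27). Without control replicate 1 and KO replicate 4 together it was called, at -0.25. Dnmt3l (ENSMUSG00000000730, chr10:78041947-78063622, plus strand) overlaps Aire on the other strand, which had 81 to 401 counts per library. The strand setting of the counting is not given in the sources used here, so a share of reads could be assigned to either gene.

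Dnmt3b, the de novo enzyme of the early embryo, was lower in every KO library. Control libraries had 27.8, 28.4, 27.1 and 24.8 CPM, and KO libraries had 18.8, 16.7, 15.7 and 11.6 CPM. The highest KO library was well below the lowest control library. Means were 27.0 ± 1.59 and 15.7 ± 3.03 CPM (SD, n = 4 each), or 58.1% of control, and a log2 change of -0.79 (SE 0.16, adjusted p = 0.0012, edgeR) and of -0.66 without control replicate 1 and KO replicate 4. It stayed called with scaling by library size only (-0.51). The gene is ENSMUSG00000027478 (chr2:153649450-153687730, plus strand), and near-identical sequence in its rodent copy Dnmt3c makes the division of reads between them uncertain.

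Within libraries, the ratio of Dnmt3a to Dnmt3l did not separate the groups, whereas that of Dnmt3a to Dnmt3b did. Reads of Dnmt3a per Dnmt3l read were 1.39 to 1.96 in control and 1.56 to 1.68 in KO libraries, a difference of -0.030 on the log2 scale (exact permutation test, two-sided p = 0.743 and 0.857 after adjustment) and of -0.13 without control replicate 1 and KO replicate 4. Reads of Dnmt3a per Dnmt3b read were 7.12, 7.84, 7.70 and 8.64 in control libraries and 9.38, 8.997, 10.9 and 14.6 in KO libraries. No KO library was as low as a control library, and the mean log2 difference was 0.46 (exact permutation test, two-sided p = 0.0286 and 0.0429 after adjustment). KO replicate 4 had the highest ratio, and the difference was 0.32 without it (exact permutation test, two-sided p = 0.0571) and 0.27 without it and control replicate 1 (p = 0.1, the smallest that an exact test of 3 libraries against 3 allows).

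**Figure D2:**
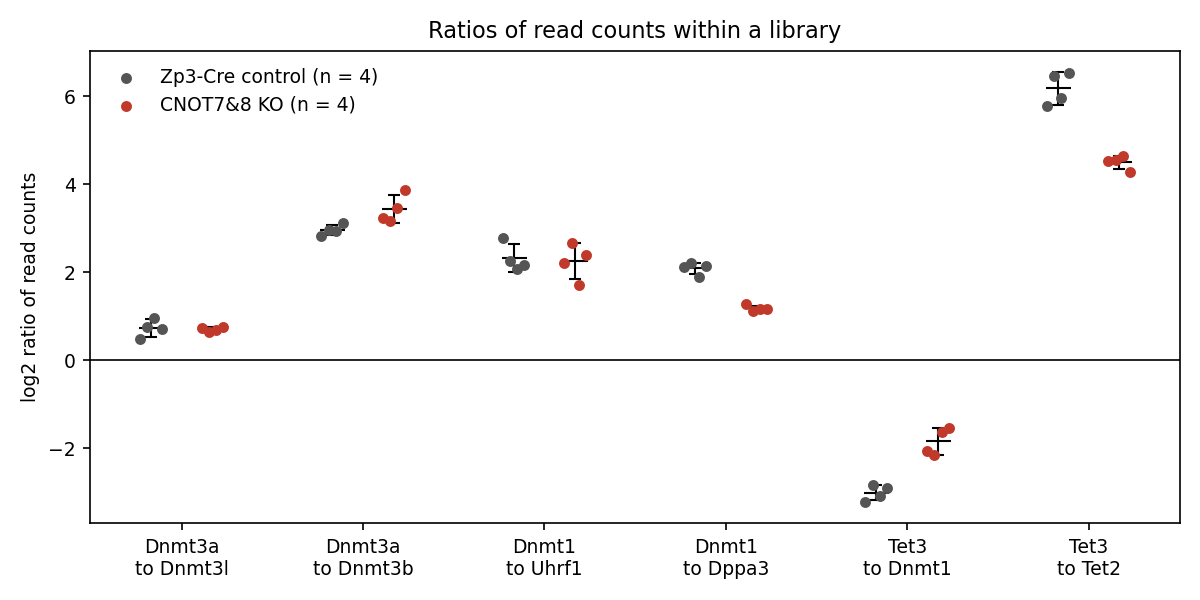
Log2 ratio of the read counts of 2 genes in the same library, with a point for each of the 4 control and 4 KO libraries and a line at each group mean. Groups lie apart for Dnmt3a to Dnmt3b, Dnmt1 to Dppa3, Tet3 to Dnmt1 and Tet3 to Tet2, and overlap for Dnmt3a to Dnmt3l and Dnmt1 to Uhrf1.

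The TET dioxygenases split. Tet2 was the one upregulated DEG of the 9 genes, with 9.25, 7.30, 7.48 and 6.48 CPM in control libraries and 21.7, 19.99, 22.6 and 31.1 CPM in KO libraries. All KO libraries lay above all control libraries, and KO replicate 4 was the highest. The means rose from 7.63 ± 1.16 to 23.9 ± 4.96 CPM (SD, n = 4 each), 3.13-fold, with a log2 change of 1.64 (SE 0.18, adjusted p = 1.6e-05, edgeR). It was 1.59 without control replicate 1 and KO replicate 4, and 2-fold or more in 18 of 18 alternative fits. Averaged over the 8 libraries, Tet1 and Tet2 both lay at 10 to 100 CPM. Of genes at that level, 12.7% were upregulated DEGs and 25.75% were called higher. Upregulated DEGs made up 35.65% of genes averaging 1 to 10 CPM, where only the control levels of Tet1 and Tet2 lay. Tet2 (ENSMUSG00000040943) is at chr3:133463679-133545139 on the minus strand.

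Tet1, the paralog best known from embryonic stem cells and primordial germ cells, also rose. It had 9.09, 7.40, 7.48 and 6.77 CPM in control libraries, and 13.0, 11.9, 11.9 and 14.4 CPM in KO libraries. No library of one group reached the range of the other. The mean went from 7.69 ± 0.987 to 12.8 ± 1.20 CPM (SD, n = 4 each), 1.67-fold, a log2 change of 0.73 (SE 0.16, adjusted p = 0.0020, edgeR), and 0.76 without control replicate 1 and KO replicate 4. Scaling by library size only raised it to 1.02, past 2-fold. Tet1 is ENSMUSG00000047146 (chr10:62804570-62908996, minus strand).

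Tet3, the form that oxidizes the paternal genome of the zygote, had 506, 639, 467 and 598 CPM in control libraries and 503, 469, 562 and 607 CPM in KO libraries. The ranges overlapped almost completely. Means were 552 ± 79.7 and 535 ± 61.1 CPM (SD, n = 4 each), and the log2 fold change was -0.045 (95% confidence interval -0.32 to 0.23, adjusted p = 0.778, edgeR). Its sign depended on the scaling, the log2 fold change being 0.24 with library size only. With TMM scaling and without control replicate 1 and KO replicate 4 it was -0.15. Tet3 (ENSMUSG00000034832) is at chr6:83362373-83459084 on the minus strand.

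Relative to its own library, Tet3 rose against Dnmt1 and fell against Tet2. There were 0.108, 0.141, 0.119 and 0.133 Tet3 reads per Dnmt1 read in control libraries, and 0.241, 0.225, 0.325 and 0.343 in KO libraries, 2.24-fold more on average. Reads of Tet3 per Tet2 read numbered 54.7, 87.4, 62.4 and 92.3 in control and 23.2, 23.5, 24.8 and 19.5 in KO libraries, 3.20-fold fewer. Neither ratio overlapped between the groups (exact permutation test, two-sided p = 0.0286 and 0.0429 after adjustment for each). Each ratio combines the changes of 2 genes given above, so these p-values are not separate support. Without control replicate 1 and KO replicate 4 the log2 differences were 0.997 for Tet3 to Dnmt1 and -1.74 for Tet3 to Tet2, beside 1.17 and -1.68 with all libraries.

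**Figure D3:**
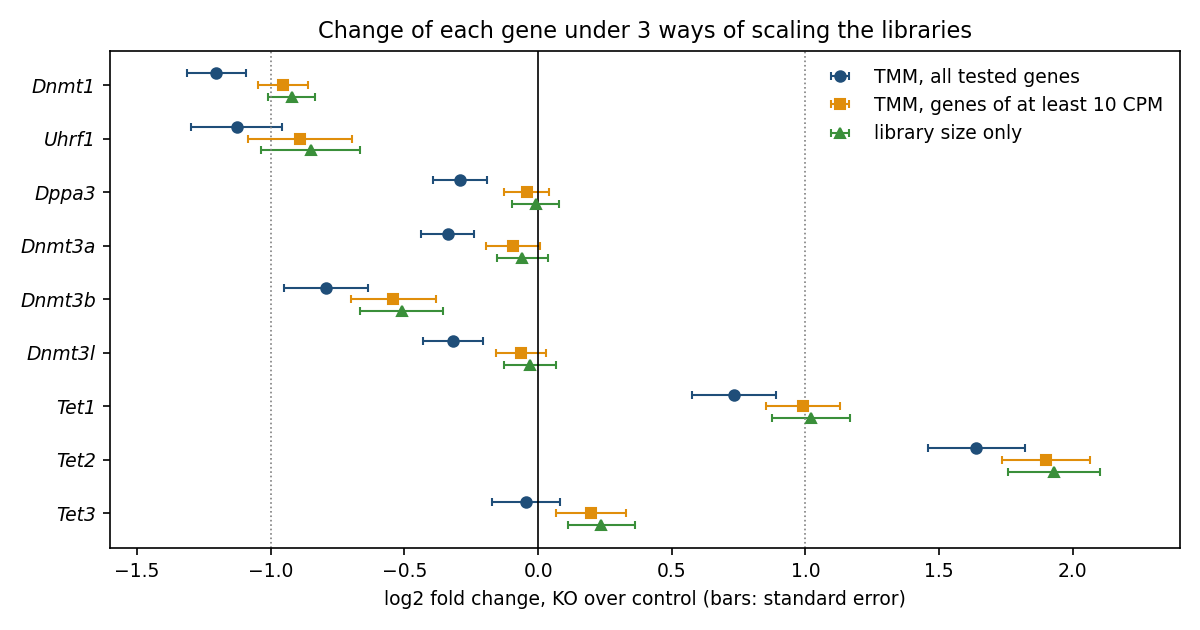
Log2 fold change (KO over control) of each of the 9 genes with its standard error, after TMM scaling, after scaling by library size only and after TMM on genes of at least 10 CPM, with dotted lines at a 2-fold change. Dnmt1 and Uhrf1 move from below -1 to -0.92 and -0.85 with library size only, and Dnmt3a, Dnmt3l and Dppa3 move close to 0.

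Markers of follicle cells were examined beside the rise of Tet1 and Tet2, since granulosa and cumulus cells surround the oocyte. Of 15 tested granulosa and cumulus markers, 5 were higher (Inha, Fshr, Kitl, Inhba and Nr5a2), 1 lower (Cyp19a1) and 9 not called. Among all tested genes, 31.2% were higher and 24.1% lower. The summed level of the listed granulosa and cumulus markers was 132 to 177 CPM in control and 218 to 272 CPM in KO libraries. Much of this sum was Nr5a2, with means of 56.6 CPM in control and 122 CPM in KO, and Cyp19a1, with 58.4 and 31.3 CPM. Foxl2, a defining granulosa factor, had at most 1 count in any library. Inha, a subunit of inhibin, had 6.58, 4.44, 10.001 and 6.41 CPM in control libraries and 38.4, 34.1, 26.4 and 4.77 CPM in KO libraries. KO replicate 4, which had the highest Tet1 and Tet2 levels of all 8 libraries, was within the control range for Inha. For Nr5a2 it was the highest of all libraries (132 CPM, with 48.3 to 69.3 CPM in control libraries). For Kitl (40.1 CPM) and Fshr (3.34 CPM) it was above every control library. Inhba, also called higher, ranged from 1.63 to 7.49 CPM in KO and from 1.77 to 3.20 CPM in control libraries. The lowest KO library for Inhba was thus below every control library. The same held for Hsd17b1, which was not called (0.953 to 4.44 CPM in KO, 2.19 to 3.60 CPM in control libraries). The part of follicle cell RNA in the rise of Tet1 and Tet2 was not tested. Of 5 tested blood and endothelial markers, Cd68 (2.70-fold) and Ptprc were higher and Kdr was lower (4.19 to 0.759 CPM), and the globin genes Hba-a1 and Hbb-bs had 0 counts. Among 12 oocyte markers, 6 were lower and 2 higher, beside 24.1% and 31.2% of all tested genes. They included Mos (624 to 257 CPM) and Kit (168 to 85.4 CPM), lower, and Ddx4 (71.7 to 139 CPM), higher. In bulk RNA, fewer cells of a type and less RNA per cell cannot be told apart.

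Levels of different genes were compared per kb of the longest annotated transcript. In control oocytes the order was Dppa3 (1246 ± 52.1 CPM per kb), Dnmt1 (753 ± 57.0), Uhrf1 (250 ± 40.7), Dnmt3l (70.1 ± 8.23), Tet3 (50.7 ± 7.31), Dnmt3a (21.8 ± 1.05), Dnmt3b (6.26 ± 0.368), Tet2 (0.831 ± 0.127) and Tet1 (0.535 ± 0.0687), each as mean and SD of 4 libraries. No neighbours in this order overlapped, but the lowest Dnmt3l library (58.66 CPM per kb) was barely above the highest Tet3 library (58.56). Maintenance factors and Dppa3 were thus the most abundant per length, and Tet1 and Tet2 the least. KO oocytes had the same order, with Dnmt1 at 327 ± 33.4, Uhrf1 at 114 ± 26.8, Dnmt3l at 56.3 ± 2.604, Tet3 at 49.1 ± 5.60 and Dnmt3b at 3.63 ± 0.702 CPM per kb. Tet2 reached 2.599 ± 0.540 CPM per kb there, and its libraries overlapped with those of Dnmt3b, as did those of Tet3 with Dnmt3l. With the merged length of all exons, Tet1 and Tet2 changed places in control oocytes, at 0.497 and 0.452 CPM per kb, and overlapped. Dnmt3l and Tet3 also overlapped in control oocytes with that length.

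Related genes were counted in 6 lists covering 77 tested genes, of which 18 were higher and 22 lower, beside 31.2% and 24.1% of all tested genes. The balance turned with scaling by library size only, to 27 higher and 12 lower, and without control replicate 1 and KO replicate 4 the counts were 21 and 23. Of 10 further methyltransferases and maintenance partners, 1 was higher and 6 lower, with a median log2 fold change of -0.54 beside 0.12 over all genes. The exception was Uhrf2, the paralog of Uhrf1, which rose from 3.90 ± 1.06 to 25.1 ± 4.05 CPM (SD, n = 4 each, 6.44-fold, log2 change 2.67 with SE 0.21, adjusted p = 1.4e-06, edgeR). Thus Uhrf1 was downregulated and Uhrf2 upregulated in the same libraries, although Uhrf2 stayed far below Uhrf1. Lower were Dnmt3c, the rodent copy of Dnmt3b (listed in the count table as Gm14490, 3.63 to 1.63 CPM), Trdmt1, a tRNA methyltransferase related to DNMT1 (24.8 to 11.6 CPM), Cdca7l (66.3 to 32.6 CPM), Usp7, the deubiquitinase that stabilizes DNMT1 and UHRF1 (861 to 555 CPM), the replication clamp Pcna (191 to 140.2 CPM) and Cxxc1 (49.4 to 27.1 CPM). Hells, Cdca7 and Zbtb24 were not called.

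The base excision genes act after TET oxidation, cutting out the modified base and repairing the gap. Of 18 tested, 7 were lower, 2 higher (Apobec2 and Gadd45a) and 9 not called, with a median log2 fold change of -0.09. Over all tested genes, 24.1% were lower and 31.2% higher. The 7 lower genes averaged 10 to 1000 CPM over the 8 libraries. Lower calls were common there, at 36.85% of genes at 10 to 100 CPM and 55.0% of those at 100 to 1000 CPM. Xrcc1, the scaffold of single-strand break repair, fell from 106 ± 26.3 to 48.2 ± 10.4 CPM (log2 fold change -1.14). Polb, the gap-filling polymerase, fell from 71.2 ± 3.52 to 36.0 ± 3.41 CPM (-0.99), and the glycosylase Neil3 from 308 ± 52.6 to 155 ± 32.8 CPM (-0.99). Lig3, Nthl1, Apex1 and Smug1 were also lower. Tdg, the glycosylase that removes oxidized methylcytosine, had means of 0.601 ± 0.233 CPM (control) and 0.984 ± 0.420 CPM (KO) and was not called.

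Of 8 tested genes for proteins that bind methylated CpG, 4 were higher and 0 lower, with a median log2 fold change of 0.31. Over all tested genes 31.2% were higher. Mbd5 rose from 84.0 ± 11.97 to 141 ± 25.4 CPM (log2 change 0.74), and Mbd2 and Mbd1 rose by 0.53 and 0.49 on the log2 scale, both short of 2-fold.

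Of 16 genes for histone marks that guide methylation, 5 were higher and 3 lower, a share of higher calls close to the 31.2% of all tested genes. The H3K9 methyltransferases Suv39h1 (0.755 ± 0.145 to 4.40 ± 1.08 CPM, 5.83-fold) and Ehmt2 (2.78 ± 0.447 to 9.58 ± 2.57 CPM, 3.44-fold) and the heterochromatin protein gene Cbx3 (2.5995 ± 0.817 to 12.1 ± 1.08 CPM, 4.66-fold) were upregulated from low levels (SD, n = 4 each). Such rises were common at their level, with 35.65% of genes averaging 1 to 10 CPM over the 8 libraries being upregulated DEGs. Kdm1b, the H3K4 demethylase needed for maternal imprints, was higher (405 ± 57.3 to 551 ± 30.1 CPM, log2 fold change 0.45), whereas its paralog Kdm1a (101 to 62.8 CPM), Kmt2b and Nsd2 were lower. Setd2, whose H3K36 trimethylation directs DNMT3A in the oocyte, had 158 ± 64.9 and 231 ± 79.3 CPM and was not called.

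**Figure D4:**
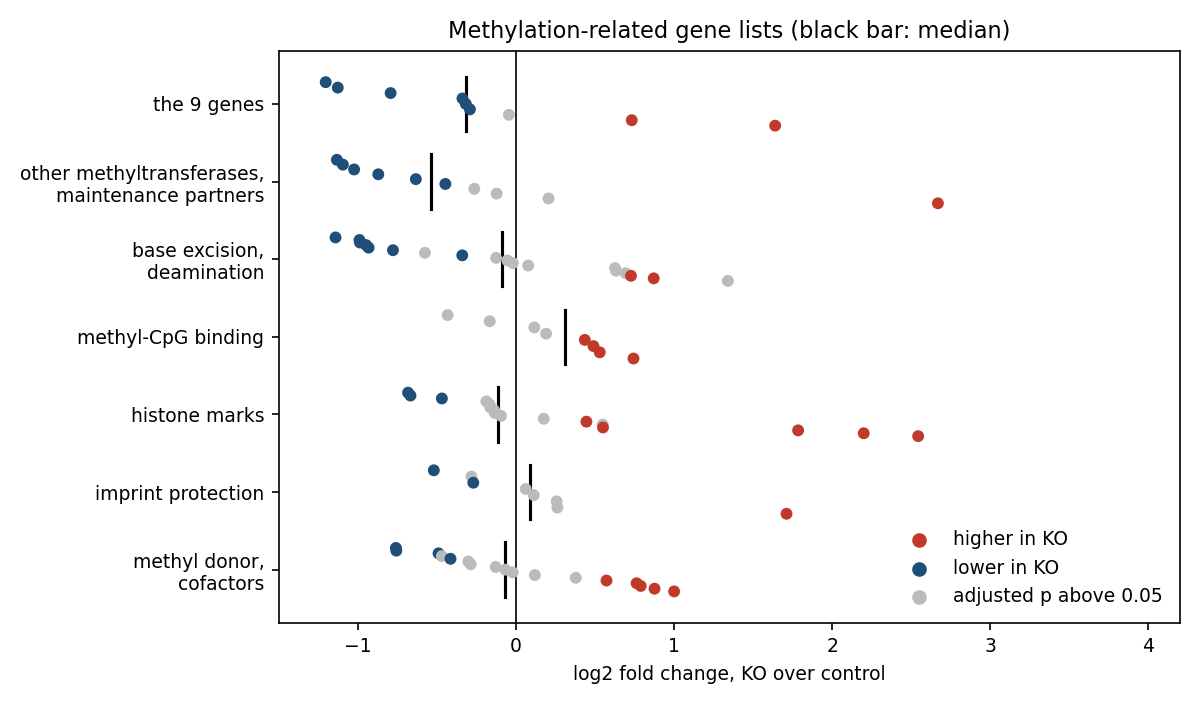
Log2 fold change (KO over control) of each tested gene among the 9 genes and in the 6 related lists, with a point per gene coloured by its call and a black bar at the list median. The list of further methyltransferases and maintenance partners has its median at -0.54, with Uhrf2 at 2.67 apart from the rest, and the methyl-CpG binding proteins have theirs at 0.31.

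Of 8 imprint protection genes tested, Zfp57, the zinc finger protein that holds methylation at imprinted regions (1140.1 ± 104 to 946 ± 9.60 CPM, log2 fold change -0.27), and Rif1 (1285 ± 276 to 896 ± 141 CPM, -0.52) were lower, Zfp42 was higher (1.27 ± 0.396 to 4.18 ± 0.856 CPM, 1.71), and Trim28, Zfp445, Ctcf, Arid4a and Arid4b were not called. Over all tested genes, 31.2% were higher and 24.1% lower. Of the 82 genes averaging 1000 CPM or more, the level of Zfp57 and Rif1, 64.6% were lower. Of 17 genes for methyl donors and cofactors of these enzymes, 5 were higher and 4 lower, close to the shares over all tested genes. Idh1, which makes the 2-oxoglutarate that TET enzymes consume, was higher (58.1 ± 8.30 to 98.6 ± 6.69 CPM, 0.76), as was Idh2 at a low level (1.19 to 2.07 CPM). Gnmt, which uses up S-adenosylmethionine, the methyl donor, was higher (2.51 to 5.04 CPM), together with Ahcyl1 (10.3 to 19.0 CPM) and Ogt, a binding partner of TET proteins (215 to 320 CPM). The lower genes included Mat1a, Mthfd1 and Mtr.

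Tet2 had the largest change of the 9 genes, and the genes whose log2 CPM followed it most closely over the 8 libraries were Aff4 (Pearson r = 0.998), Trim12c (r = 0.998) and Vgll1 (r = 0.997). These are descriptions over libraries that fall in 2 groups, chosen from all tested genes for their likeness. Aff4, a scaffold of the super elongation complex, went from 20.01 ± 5.29 to 96.9 ± 27.9 CPM. Trim12c had 11.0 ± 2.46 and 60.9 ± 16.4 CPM, and Vgll1 had 12.8 ± 2.19 and 41.4 ± 8.36 CPM (SD, n = 4 each).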

How the data were processed

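Total RNA of GV oocytes was sequenced in 8 libraries, 4 per genotype. The authors describe ribosomal RNA depletion, although the kit they name is a TruSeq Stranded mRNA kit. They mapped the read pairs to GRCm38 with STAR 2.6.1d (nf-core/rnaseq). What the authors deposited is a table of raw counts, 1 row per gene, with no normalization. The counting tool and its strand setting are not given in the sources used here. Groups and replicate numbers came from the labels. The 9 genes and the gene lists were chosen with earlier results of these data known, so no p-value of a gene was adjusted over a list alone.

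Genes were tested with edgeR 4.0.16 under R 4.3.3 (TMM, quasi-likelihood test, no covariates, genes of at least 0.2 CPM in 2 libraries, Benjamini-Hochberg adjustment). The study's exact test was an alternative, with DESeq2 1.42.0, other scalings and filters, the replicate number as a block and leave-one-out fits. The fit without control replicate 1 and KO replicate 4 was added after seeing the data. Ratios of counts within a library were compared by exact permutation of 70 assignments, two-sided, with adjustment over the 6 ratios. These ratios are of genes chosen as above and combine their single changes, so their p-values are not separate support. No 2 libraries of a group agreed within sampling noise. GENCODE vM21 gave coordinates, lengths and 3′UTRs, and 98.2% of gene identifiers were found in it. All 9 genes were named. From each other list, the 3 genes with the largest absolute log2 fold change among those called with a mean of at least 1 CPM were named, with any gene a count of 5 or fewer was about. Other list genes were named after their values were seen. Some list genes are counted but not reported here by name. The fit was tested on simulated data.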

Additional observations from a re-analysis of the deposited data

How the results depend on the processing

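Over 18 alternative fits, Dnmt1, Uhrf1, Dnmt3b, Tet1 and Tet2 kept their direction and call, Dnmt3a was called in 15, and Dnmt3l and Dppa3 in 9. With scaling by library size only, 3 of the 9 genes were lower, 0 as downregulated and 2 as upregulated DEGs, 27 related genes were higher and 12 lower, and over all genes 2620 were lower and 588 downregulated, in place of 4637 and 1265. TMM over genes of at least 10 CPM gave 3 lower and 0 downregulated among the 9, 14 lower among related genes, and 2867 lower and 628 downregulated over all genes. Upper quartile scaling left 3 of the 9 lower. These scalings raised all log2 fold changes by medians of 0.29, 0.25 and 0.10. Keeping genes that reached 1 CPM in 4 libraries gave 2874 upregulated genes in place of 4580, from fewer genes tested. Tet3, not called in any fit, changed sign with library size only (0.24), upper quartile scaling (0.052), TMM over genes of at least 10 CPM (0.20), the 1 CPM filter (0.021), and without control replicate 2 (0.031), KO replicate 1 (0.0021) or KO replicate 2 (0.028), and ranged from -0.118 to 0.031 over the leave-one-out fits. The Dnmt3a to Dnmt3b ratio differed by 0.32 to 0.55 on the log2 scale across leave-one-out fits, and 5 of these 8 lost the call. With merged exon length, 2 pairs of neighbours overlapped in the control order of levels (0 otherwise) and 1 in the KO order (2 otherwise). The cause of these changes was not tested, other than the shift of all genes by scaling.

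The labels number the replicates of each group 1 to 4. The same-numbered libraries did not deviate together (correlations of -0.072, -0.042, 0.11 and -0.121 for numbers 1 to 4). These correlations do not show whether libraries of the same number shared a preparation, and the labels do not say. With the replicate number as a block, 5510 genes were higher and 4203 lower, and 4 of the 9 genes were lower, without Dnmt3l (log2 fold change -0.31, adjusted p = 0.078) and Dppa3 (-0.30, adjusted p = 0.071). No call was turned in direction.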
